A study of Mus musculus with 4 samples.

Results

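The Notch members described here are the receptor genes Notch1, Notch2 and Notch3, the ligand genes Jag1, Jag2 and Dll1, the receptor-modifying gene Lfng, and the target genes Hes1, Hey1 and Nrarp. They were taken by symbol, 10 of the 27998 genes in the files, and all 10 were present. Their levels were read in the 4 single-cell RNA libraries of the series and in endothelial cells of the mesenchyme libraries. The libraries hold submandibular epithelium, parotid epithelium, submandibular mesenchyme and parotid mesenchyme of ICR mouse embryos at embryonic day 12, a wild-type outbred stock with no transgene or treatment named in the labels. Each library is 1 pool from approximately 10 glands, split into epithelium and mesenchyme after Dispase II and then dissociated with Bacillus licheniformis protease, Accutase and Accumax. There is thus 1 sample per group, no test between groups exists, and every interval is a 95% counting interval that covers neither animals nor dissections. The stated purpose of the study was to describe cell diversity in these glands.

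Notch receptors are cell-surface proteins that are cut when a neighbouring cell presents a Jagged or Delta ligand, which frees a fragment that enters the nucleus and acts with the DNA-binding protein RBPJ. Hes1 and Hey1 encode transcriptional repressors switched on in this way, and Nrarp encodes a small protein induced by Notch that damps the signal. Fringe enzymes such as the product of Lfng add sugars to the receptors and so change which ligands they answer. In blood vessels the pathway is known for arterial fate and tip cell selection, in skeletal muscle for keeping progenitors undifferentiated, and in branching epithelia for lumen and duct cell choices.

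Kept barcodes numbered 3767 in submandibular epithelium, 1854 in parotid epithelium, 4842 in submandibular mesenchyme and 4421 in parotid mesenchyme, with median depths of 9578, 6931.5, 5520.5 and 5737 UMIs, the molecular tags that count each captured RNA molecule 1 time. Cells were clustered with the Notch members and 43 other pathway genes left out, so the clusters do not rest on them. The epithelium libraries gave 3632 submandibular and 1769 parotid epithelial-like cells, and the mesenchyme libraries 4229 submandibular and 3913 parotid mesenchymal-like cells. Endothelial cells were those with at least 3 UMIs of Cdh5, Pecam1 and Kdr together: 120 in submandibular and 59 in parotid mesenchyme, and 0 in both epithelium libraries. All 11 endothelial markers were detected in at least 25% of these cells in both glands, and 118 and 56 of the cells lay in endothelial-like clusters. The 11 include Cdh5, Pecam1 and Kdr, and the clusters were named with the same list, so neither is an independent check. Their mesenchymal markers (9 genes) summed to 196 CPM in submandibular and 301 CPM in parotid endothelial cells, against 3002 and 3924 CPM in mesenchymal-like cells. Globin and other erythroid genes (9 genes) summed to 843 and 18706 CPM in submandibular and parotid endothelial cells, against 889 and 914 CPM in mesenchymal-like cells, and the part of this in the parotid results was not tested. The pericyte and smooth muscle list (8 genes) summed to 132 and 26.7 CPM in submandibular and parotid endothelial cells, against 13.4 and 15.9 CPM in mesenchymal-like cells, with Rgs5, Cspg4, Myh11 and Higd1b at 0 in the endothelial cells of both glands. The skeletal muscle list (9 genes) summed to 454 and 56.6 CPM, against 39.6 and 50.02 CPM. In the endothelial-like clusters, where the sums of the skeletal muscle list were 37.8 and 24.3 CPM and those of the pericyte list 21.6 and 6.47 CPM, Notch1 was at 81.8 and 51.8 CPM, Hes1 at 234 and 230 CPM, Hey1 at 72.5 and 76.04 CPM and Nrarp at 109.6 and 159 CPM. CPM are the UMIs of a group of cells, summed over the group and set to a common total, so that groups of different size compare.

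Among the receptors, Notch1 (ENSMUSG00000026923; GRCm38 chromosome 2, 26457903 to 26516663, minus strand) was highest in endothelial cells of the 4 groups of cells compared here. It stood at 21.4 CPM in submandibular and 19.5 CPM in parotid epithelium, at 86.7 and 50.3 CPM in endothelial cells, at 6.42 and 5.79 CPM in skeletal muscle-like cells, and at 7.48 and 7.68 CPM in mesenchymal-like cells. The endothelial intervals, 71.2 to 105 and 34.4 to 71.1 CPM, did not overlap those of any other of these groups. Notch2 was ordered the other way, at 21.3 and 18.1 CPM in submandibular and parotid epithelium, 11.9 and 4.72 CPM in endothelial cells, 44.9 and 34.5 CPM in muscle-like cells, and 47.9 and 68.6 CPM in mesenchymal-like cells. Notch3, a receptor best known from vascular smooth muscle, was highest of these groups in muscle-like cells, at 30.9 and 21.8 CPM, and lay between 4.72 and 12.1 CPM in the other 6. Single clusters within the epithelium, described further on, exceeded some of these values, with Notch3 at 32.1 and 56.3 CPM in a submandibular and a parotid cluster and Notch1 at 109 CPM in the parotid one. In mesenchymal-like cells Notch3 was at 12.1 CPM in submandibular and 10.8 CPM in parotid, values whose intervals overlapped.

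Ligand transcripts were sparse. Jag1 was at 9.69 and 8.62 CPM in submandibular and parotid epithelium, 12.7 and 11.01 CPM in endothelial cells on 16 and 7 UMIs, and 2.96 and 6.88 CPM in mesenchymal-like cells. Jag2 gave 195 and 74 UMIs in submandibular and parotid epithelium and 12 and 6 in endothelial cells, against 1 and 0 in the mesenchymal-like cells. These raw counts do not order the groups, whose totals were 38387904 and 13339334 UMIs in epithelium and 1256662 and 635564 in endothelial cells. Jag2 was at 10.1 and 11.3 CPM in the endothelial-like clusters of at least 50 cells, against medians of 5.25 and 4.85 CPM over the epithelial-like ones. Dll1 had 0 UMIs in 3632 submandibular epithelial-like cells, where 3 UMIs would be 0.0781 CPM, and 14 UMIs in the parotid ones. Its 13 and 5 UMIs in submandibular and parotid endothelial cells and 22 and 31 in muscle-like cells compare with 1 and 5 in far more mesenchymal-like cells. In clusters of at least 50 cells Dll1 was at 13.2 and 8.09 CPM in the endothelial-like ones and at most 0.936 CPM in any mesenchymal-like one. Lfng was at 20.4 and 21.2 CPM in muscle-like cells, 6.10 and 6.75 CPM in epithelium, 8.75 and 6.29 CPM in endothelial cells, and 0.288 and 0.464 CPM in mesenchymal-like cells.

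Of the targets, Hes1 (ENSMUSG00000022528; chromosome 16, 30064384 to 30067796, plus strand) was highest in epithelium, at 600 CPM in submandibular and 391 CPM in parotid. It stood at 232 and 216 CPM in endothelial cells, 264 and 181 CPM in muscle-like cells, and 80.7 and 26.0 CPM in mesenchymal-like cells. Hey1 (ENSMUSG00000040289; chromosome 3, 8663359 to 8667256, minus strand) was at 64.6 and 17.5 CPM in epithelium, 75.6 and 74.0 CPM in endothelial cells, 50.8 and 58.5 CPM in muscle-like cells, and only 2.05 and 0.718 CPM in mesenchymal-like cells. Nrarp (ENSMUSG00000078202; chromosome 2, 25180758 to 25183339, plus strand) was at 13.7 and 48.9 CPM in epithelium, 102 and 148 CPM in endothelial cells, 11.1 and 8.55 CPM in muscle-like cells, and 0.370 and 0.633 CPM in mesenchymal-like cells. For all 3 targets the mesenchymal-like cells were thus the lowest of the 4 groups in both glands. As a measure of free RNA, erythroid-like cells, which should lack these genes, had a UMI of Hes1 in 8.49% (submandibular) and 1.45% (parotid) of cells and of Nrarp in 0.943% and 0%, at median depths of 17195 and 16904 UMIs. Among the 69 parotid erythroid-like cells, 3 cells with Nrarp would be a share of 4.35%. The Nrarp shares of mesenchymal-like cells were 0.213% in submandibular (median 5272 UMIs) and 0.383% in parotid (median 5561.5 UMIs), and how many of these UMIs were free RNA was not tested.

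**Figure D1:**
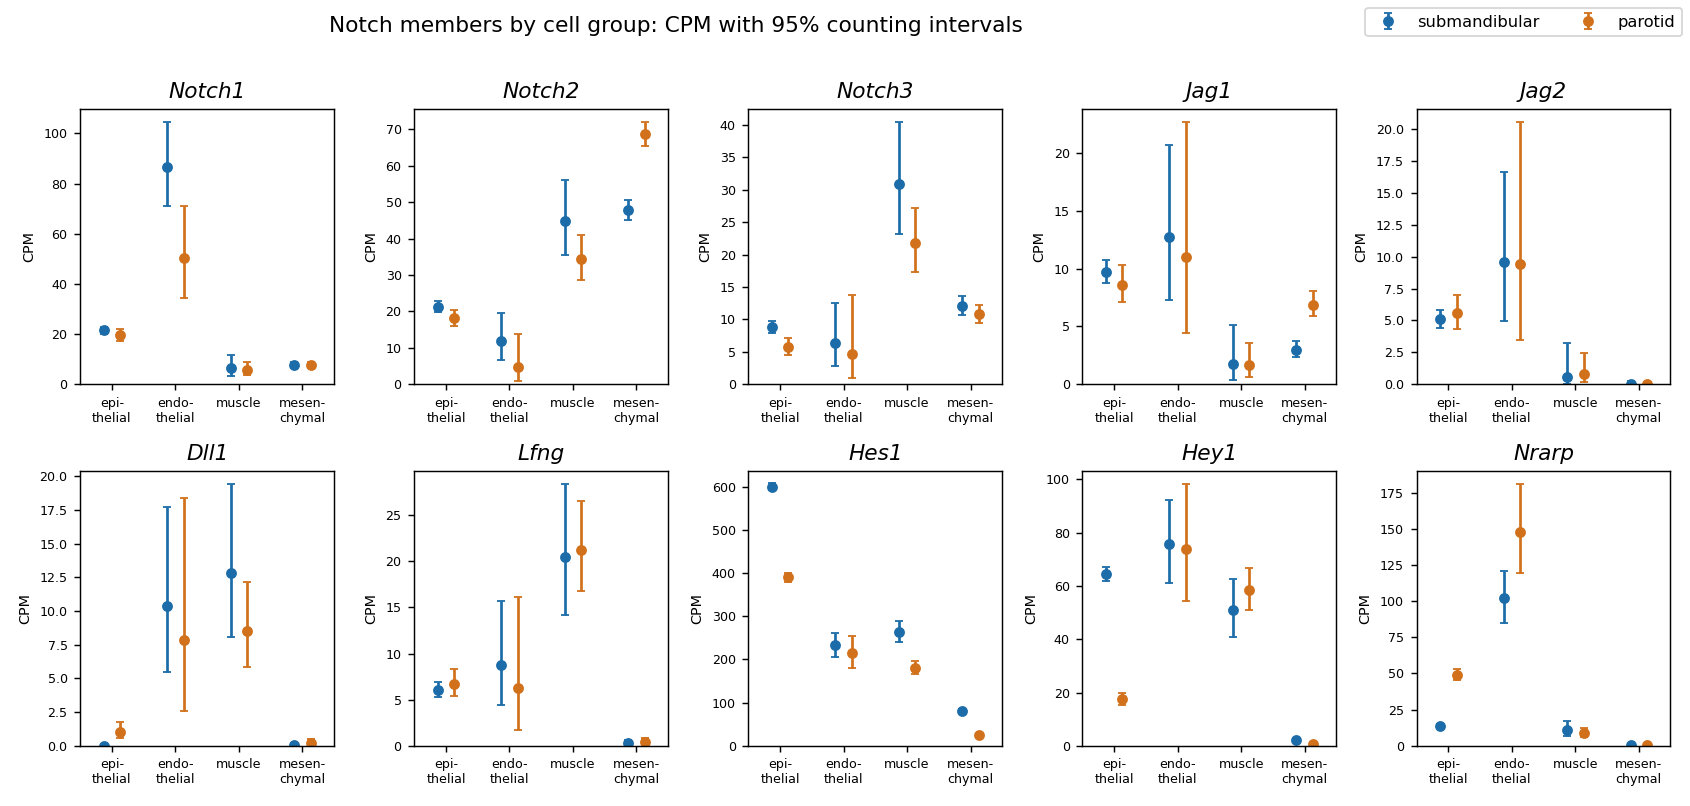
CPM (y axis, linear, from 0) of each of the 10 Notch members in epithelial-like cells, endothelial cells, skeletal muscle-like cells and mesenchymal-like cells (x axis), for submandibular (blue) and parotid (orange) libraries. Points are sums over cells of 1 library and bars 95% Poisson intervals. Among the groups drawn, Notch1 and Nrarp peak in endothelial cells, Notch3 and Lfng in muscle-like cells, Hes1 in epithelium and Notch2 in parotid mesenchymal-like cells.

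Promoter letters were read for the Notch members that have an entry in RefSeq's table, 8 of 10, on GRCm38.p6, as the 250 bases before the gene start that RefSeq gives. Each window was searched on both strands for TGGGAA, the core letters bound by RBPJ, and for CACGTG, the E-box letters bound by Hey proteins, which read the same on both strands. TGGGAA was in 21.6% and CACGTG in 6.02% of all 32851 windows of that length. Of the 8 members 1 held TGGGAA (Lfng) and 2 held CACGTG (Lfng and Nrarp), and of the 33 matched among the other pathway genes 11 and 2 did. Some genes had more than 1 window and were counted if any of them matched. For Psen2, Psenen and Maml2 only 1 of the windows held TGGGAA. The percentages are per window, so the counts of genes do not compare with them directly. The windows of Lfng and Nrarp are shown as those that hold a match, and that of Hes5 as the pathway target gene whose transcripts were found chiefly in endothelial cells. Matched letters are in capitals, and the second Lfng run is CACGTG overlapping TGGGAA by 2 bases.

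Lfng (chr5:140607091-140607340, plus strand): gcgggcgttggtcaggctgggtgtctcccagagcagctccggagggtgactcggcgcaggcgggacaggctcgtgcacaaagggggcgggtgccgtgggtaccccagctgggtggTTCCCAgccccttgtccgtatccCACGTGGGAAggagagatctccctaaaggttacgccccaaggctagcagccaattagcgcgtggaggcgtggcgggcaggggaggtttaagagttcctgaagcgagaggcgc
Nrarp (chr2:25180508-25180757, plus strand): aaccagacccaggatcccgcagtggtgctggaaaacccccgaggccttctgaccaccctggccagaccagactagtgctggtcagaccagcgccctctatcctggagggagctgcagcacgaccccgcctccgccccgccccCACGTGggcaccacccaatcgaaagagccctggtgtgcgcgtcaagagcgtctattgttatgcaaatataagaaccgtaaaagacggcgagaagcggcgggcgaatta
Hes5 (chr4:154960673-154960922, plus strand): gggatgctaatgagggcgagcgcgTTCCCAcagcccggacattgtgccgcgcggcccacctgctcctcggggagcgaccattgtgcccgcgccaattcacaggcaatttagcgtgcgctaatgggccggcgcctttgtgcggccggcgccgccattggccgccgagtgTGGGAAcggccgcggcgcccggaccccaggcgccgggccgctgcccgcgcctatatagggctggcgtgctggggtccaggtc

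In the Lfng window TGGGAA began 135 bases (other strand) and 108 bases before the start, and CACGTG began 112 bases before it. CACGTG in the Nrarp window began 108 bases before the start, and the Hes5 window held TGGGAA 226 bases (other strand) and 82 bases before the start. These are matches of letters only.

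Endothelial cells were set against the mesenchymal-like cells of the same library, and a gene was counted when it differed at least 2-fold and reached at least 20 CPM in the higher group. Notch1, Hes1, Hey1 and Nrarp were higher and Notch2 was lower in endothelial cells of both glands. These 5 were the members that reached 20 CPM. Of 6620 genes that reached it in submandibular mesenchyme, 11.9% were higher and 17.3% lower, and of 6372 in parotid mesenchyme 13.5% and 17.7%. With size factors from DESeq2 in place of total UMIs the counts of all genes higher and lower were 1046 and 732 in submandibular mesenchyme, in place of 789 and 1145, and 1079 and 839 in parotid mesenchyme, in place of 859 and 1130, while all 10 members kept their direction.

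Notch1 was 11.6-fold higher (9.06 to 14.8) in submandibular and 6.55-fold higher (4.35 to 9.58) in parotid endothelial cells than in mesenchymal-like cells. Hey1 rested on 95 and 47 UMIs in endothelial cells, against 50 and 17 in far more mesenchymal-like cells, 36.8-fold (25.9 to 52.9) and 103-fold (58.1 to 191) higher. Nrarp had 128 and 94 UMIs in 120 and 59 endothelial cells, against 9 and 15 UMIs in 4228 and 3912 mesenchymal-like cells. That is 276-fold (141 to 616) in submandibular and 234-fold (135 to 434) in parotid mesenchyme, for the UMIs as counted, free RNA included. Hes1 differed less, 2.88-fold (2.54 to 3.26) and 8.28-fold (6.83 to 9.98). Its endothelial levels were alike in both glands, while the mesenchymal-like level was 80.7 CPM in submandibular and 26.0 CPM in parotid. After every cell was thinned to 3000 UMIs, which left out 2 and 2 endothelial and 148 and 115 mesenchymal-like cells, Nrarp was found in 26.3% and 43.9% of submandibular and parotid endothelial cells, against 0.123% and 0.211% of mesenchymal-like cells. Before thinning the shares were 49.2% and 69.5% in endothelial cells and 0.213% and 0.383% in mesenchymal-like cells. A stricter barcode filter, a minimum of 1000 genes and no more than 5% of UMIs from mitochondria, left 19 submandibular and 22 parotid endothelial cells. Under it Notch1 was 7.63-fold (3.78 to 14.1) and 3.08-fold (0.984 to 7.34) higher, on 12 and 5 UMIs, and Nrarp 637-fold (202 to 3223) and 200.3-fold (101 to 420) higher, on 38 and 29 UMIs. Parotid Hey1 was then at 17.5 CPM on 4 UMIs, under the minimum of the size rule, at a ratio of 27.6 (6.56 to 89.4).

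Notch2 was the receptor lower in endothelial cells, on 15 and 3 UMIs, 4.01-fold in submandibular (0.249 of the mesenchymal-like level, 0.139 to 0.413) and 0.0688 of that level in parotid (0.0142 to 0.201). Notch3 was at 6.37 and 4.72 CPM in submandibular and parotid endothelial cells, against 12.1 and 10.8 CPM, with intervals of the ratio that included 1 in both glands. Among the ligands, Jag1 was 4.30-fold higher (2.34 to 7.47) in submandibular endothelial cells and 1.601-fold (0.634 to 3.37) in parotid ones. Jag2 in parotid was 74.6-fold higher, taking 3 UMIs for the 0 in mesenchymal-like cells. In submandibular the Jag2 ratio was 232 (34.4 to 9937) on 12 against 1 UMI. Dll1 was 252-fold (37.8 to 10702) on 13 against 1 UMI in submandibular and 37.3-fold (8.58 to 162) on 5 against 5 UMIs in parotid. Lfng, with 11 and 4 endothelial UMIs against 7 and 11, was 30.4-fold (10.8 to 92.6) and 13.6-fold (3.15 to 45.7) higher. These last members stayed under 20 CPM and were not counted.

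**Figure D2:**
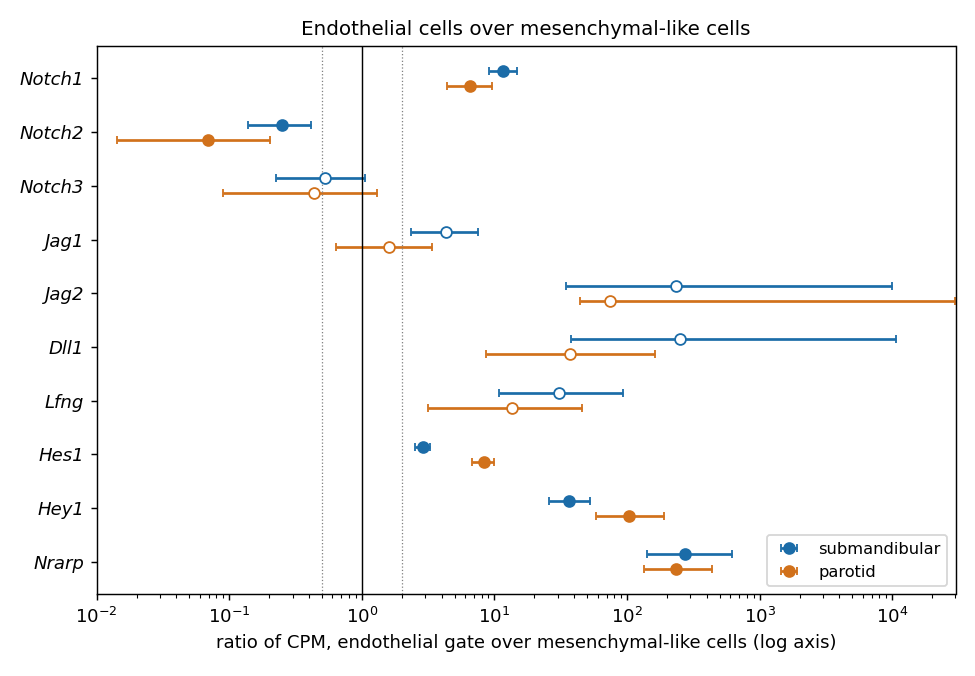
Ratio of CPM, endothelial over mesenchymal-like cells (x axis, logarithmic), for the 10 Notch members (rows) in submandibular (blue) and parotid (orange) mesenchyme, with 95% counting intervals. Filled points reach 20 CPM in 1 of the groups, dotted lines mark 2-fold, and the parotid Jag2 point takes 3 UMIs for a level of 0, with an interval that has no upper end. Notch1, Hes1, Hey1 and Nrarp lie right of the dotted lines and Notch2 left of them in both glands.

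Other genes of the pathway also differed between endothelial and mesenchymal-like cells. Of 43 on the list, 23 in submandibular and 20 in parotid mesenchyme reached 20 CPM. Of these, 6 were higher and 7 lower in submandibular and 4 higher and 4 lower in parotid endothelial cells. Of all genes that reached it, 11.9% were higher and 17.3% lower in submandibular and 13.5% and 17.7% in parotid mesenchyme. Dll4, the endothelial Delta ligand, gave 51 and 28 UMIs in submandibular and parotid endothelial cells, against 1 and 4 in mesenchymal-like cells. Mfng, another Fringe gene, gave 182 and 117 UMIs against 7 and 4. Notch4, an endothelial receptor, stood at 43.8 and 50.3 CPM against 4.48 and 4.31 CPM, 9.77-fold (6.94 to 13.6) and 11.7-fold (7.60 to 17.5) higher. Hes5, a target gene, had 26 UMIs against 1 in submandibular and 7 against 4 in parotid mesenchyme, where it stayed under 20 CPM. Dlk1, a Delta-like protein that lacks the receptor-activating domain, was lower, at 123 and 3.15 CPM in endothelial cells, against 2150 and 78.6 CPM in mesenchymal-like cells. Numbl, whose product is related to the Notch inhibitor Numb, had 2 and 3 endothelial UMIs and was 21.7-fold (5.98 to 179) and 6.41-fold (2.19 to 31.2) lower.

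Between the glands, 0 of the 4 members that reached 20 CPM in endothelial cells differed 2-fold, where 4.82% of 5830 genes were higher and 2.74% lower in submandibular cells. Hey1 was at 75.6 and 74.0 CPM in submandibular and parotid endothelial cells (ratio 1.02, 0.713 to 1.48, just under 1 with TMM or DESeq2 scaling) and Hes1 at 232 and 216 CPM (ratio 1.08, 0.877 to 1.33). Notch1 was 1.72-fold higher (1.15 to 2.64) in the submandibular cells and Nrarp was at 0.689 of its parotid level (0.524 to 0.909). In the 19 submandibular and 22 parotid endothelial cells left by the stricter barcode filter Nrarp was at 172 and 127 CPM, the other direction (log2 ratio 0.44), and Hey1 at 104 and 17.5 CPM on 23 and 4 UMIs (5.95-fold, 2.03 to 23.6). The remaining 6 members gave at most 16 UMIs per gland, and all their intervals included 1. The submandibular library held endothelial-like cells in 2 clusters, 1 of 113 cells led by Emcn, Cdh5 and Plvap, and 1 of 26 cells led by Ccl21a. In the Ccl21a cluster Hey1, Nrarp and Dll4 were each at 9.72 CPM on 3 UMIs (2.01 to 28.4), against 92.1 CPM (74.2 to 113), 141 CPM (118 to 166) and 49.6 CPM (36.7 to 65.6) in the larger cluster. Notch2 ran the other way, at 29.2 CPM (13.3 to 55.4) in the Ccl21a cluster and 6.08 CPM (2.23 to 13.2) in the larger one, and Hes1 stood at 191 and 247 CPM. Within 1 library the 2 clusters of vessel cells thus differed in opposite directions, which is a description of these cells and no test. Of the other pathway genes Dlk1, on 154 against 2 UMIs, and Numb, at 2.31-fold, were higher in submandibular than in parotid endothelial cells. Numb encodes a Notch inhibitor. Erythroid-like cells, the measure of free RNA, had Dlk1 at 65.5 CPM in submandibular and 5.94 CPM in parotid mesenchyme. How much of the endothelial Dlk1 was free RNA was not tested.

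Epithelial-like cells of the epithelium libraries were set against mesenchymal-like cells of the mesenchyme libraries of the same gland. Notch1, Hes1 and Hey1 were higher and Notch2 lower in submandibular epithelium, all 4 of the members that reached 20 CPM. Hes1 and Nrarp were higher and Notch2 lower in parotid epithelium, all 3 that reached it. Of all genes, 9.17% were higher and 17.3% lower in submandibular epithelium (587 and 1110, or 846 and 755 with edgeR's TMM scaling and 786 and 778 with DESeq2 size factors), and 7.42% higher and 10.4% lower in parotid epithelium. The 2 tissues of a gland come from separate libraries, so tissue and library cannot be told apart.

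Hes1 was 7.43-fold higher (7.09 to 7.78) in submandibular and 15.01-fold higher (13.8 to 16.3) in parotid epithelium than in mesenchymal-like cells. Hey1 was 31.4-fold (23.8 to 42.5) and 23.0-fold (14.2 to 39.5) higher, with the parotid level of 17.5 CPM under the count's minimum. Nrarp was 36.9-fold (19.3 to 81.2) and 64.4-fold (40.4 to 109) higher, with the submandibular level of 13.7 CPM under it. Notch1 was 2.85-fold (2.42 to 3.36) and 2.54-fold (2.09 to 3.09) higher, and Notch2 stood at 0.444 (0.406 to 0.486) and 0.263 (0.229 to 0.302) of the mesenchymal-like level. Jag2 was 43.8-fold higher in parotid epithelium, taking 3 UMIs for the 0 in mesenchymal-like cells. Lfng was 21.2-fold (10.1 to 53.3) and 14.5-fold (7.75 to 30.2) higher in submandibular and parotid epithelium. Epithelium thus carried more of both Jagged 2 and Lunatic fringe transcripts than mesenchymal-like cells in both glands, at levels under 10 CPM. This does not hold for all cells of the mesenchyme libraries, since muscle-like cells had more Lfng than the epithelium of either gland. Jag1 was 3.28-fold higher (2.54 to 4.28) in submandibular epithelium and 1.25-fold (0.979 to 1.602) in parotid. Notch3 was lower, at 0.725 (0.618 to 0.851) and 0.530 (0.404 to 0.687) of the mesenchymal-like level. Of the other pathway genes, Dlk2 was higher in the epithelium of both glands, at 36.5 and 29.4 CPM against 1.19 and 4.13 CPM, and Dlk1 and Numbl were lower in both. In submandibular epithelium Dtx3 and Itch, which encode ubiquitin ligases, were lower as well.

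Within the epithelium the members were not spread evenly. The cluster with the most Krt19, a keratin of luminal and surface cells, had the highest Notch1, Notch3, Jag1, Hes1, Hey1 and Nrarp of all epithelial-like clusters of at least 50 cells in both glands. This cluster was picked after the data had been seen. In submandibular epithelium it held 269 cells with Krt19 at 368 CPM and Krt7 at 84.3 CPM, and Krt15, Sfn and Anxa1 among its leading genes. In parotid epithelium it held 82 cells with Krt19 at 629 CPM and Krt7 at 798 CPM, and Sfn, Krt5 and Gabrp among its leading genes. The list of periderm markers (6 genes) summed to 6035 and 6337 CPM in these clusters, with Krt13 at 0 in the parotid one, against 1596 and 2478 CPM in the other epithelial-like cells. Another submandibular cluster, of 487 cells, had Krt15 of that list alone at 7472 CPM, so the sum does not set the submandibular cluster apart, and neither cluster is given a cell type name. The median share of mitochondrial UMIs was 5.83% and 6.57% in the submandibular and parotid cluster, against 4.40% to 5.57% and 4.27% to 5.75% in the other epithelial-like clusters of at least 50 cells. Under the stricter barcode filter, which left 46 of the 269 and 11 of the 82 cells, Hes1 was 2.89-fold (2.65 to 3.15) and 4.83-fold (4.03 to 5.75) and Nrarp 5.65-fold (3.55 to 8.59) and 20.8-fold (14.6 to 29.1) higher than in the other epithelial-like cells. The bud marker Sox10 was at 6.73 CPM in the submandibular cluster and had 0 of 532748 UMIs in the parotid one.

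Hes1 reached 1565 CPM (1517 to 1614) in the submandibular Krt19-highest cluster and 1543 CPM (1439 to 1652) in the parotid one, against 532 and 343 CPM in the other epithelial-like cells. The ratios were 2.94 (2.84 to 3.04) and 4.50 (4.17 to 4.85), and the levels of the 2 clusters differed by less than the counting error (ratio 1.01, 0.941 to 1.09). Nrarp was at 59.8 CPM in the submandibular and 612 CPM in the parotid cluster, against 10.4 and 25.5 CPM in the other cells, 5.75-fold (4.72 to 6.96) and 24.0-fold (20.6 to 28.1) higher. Its levels in the clusters lay 10.2-fold apart, the submandibular one at 0.0977 of the parotid one (0.0800 to 0.119). In cells thinned to 3000 UMIs, Nrarp was found in 18.8% and 67.1% of the submandibular and parotid cluster, against 3.52% and 7.20% of the other cells, with 3, 12, 13 and 76 shallower cells left out. Unthinned shares were 36.4% and 80.5% against 9.69% and 14.8%. Between the clusters Hey1 was higher and Nrarp and Jag1 lower in the submandibular one, 3 of the 7 members that reached 20 CPM, where 6.85% of genes were higher and 11.8% lower. The 82 parotid cells, 4.64% of the epithelial-like cells and 3.99% of their UMIs, held 326 of the 652 Nrarp UMIs.

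The receptors and Jag1 followed the targets in these clusters. Notch1 was at 60.2 and 109 CPM in the submandibular and parotid cluster, against 18.7 and 15.8 CPM in the other cells, 3.22-fold (2.68 to 3.85) and 6.90-fold (5.06 to 9.28) higher. Notch3 was at 32.1 and 56.3 CPM, against 7.11 and 3.59 CPM, 4.51-fold (3.47 to 5.81) and 15.7-fold (9.56 to 25.4) higher. Jag1 was at 22.2 and 56.3 CPM, against 8.81 and 6.64 CPM, 2.52-fold (1.86 to 3.35) and 8.48-fold (5.40 to 13.002) higher. Notch2 was 2.05-fold (1.65 to 2.52) and 3.95-fold (2.66 to 5.69) higher, and Hey1, at 112 and 46.9 CPM, 1.82-fold (1.604 to 2.06) and 2.89-fold (1.83 to 4.39) higher. Thus 6 of the 7 members that reached 20 CPM were counted as higher in the submandibular cluster, all but Hey1, and 7 of 7 in the parotid cluster. Notch1, Notch2, Notch3 and Jag1 reached 20 CPM only in these clusters, as did submandibular Nrarp and parotid Hey1. The rule could count these only as higher, and it left out Jag2 and Lfng, so the tallies are in part built in. Under the stricter barcode filter submandibular Notch3 was at 11.8 against 5.86 CPM (2.02-fold, 0.646 to 4.81), under the minimum, and Notch2 was 1.78-fold higher (0.9402 to 3.08), so neither was counted. In the 11 parotid cells left, Hey1 was 2.71-fold higher on 4 UMIs, with an interval that includes 1 (0.728 to 7.07). Over all genes 6.19% were higher and 2.94% lower in the submandibular cluster and 15.7% and 8.09% in the parotid cluster (with TMM scaling 273 and 215 in place of 351 and 167, and 768 and 678 in place of 983 and 506). Since the cells were grouped by other genes of the same transcriptomes, these ratios are a description and test nothing.

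Jag2 and Lfng ran against the other members in the submandibular cluster. The submandibular cluster had 1 UMI of each in 269 cells, at 0.0732 (0.00184 to 0.412) and 0.0609 (0.00154 to 0.343) of the level in the other epithelial-like cells. The parotid cluster had 0 UMIs of either among 532748, where 3 UMIs would be 5.63 CPM. The other parotid cells had 5.78 and 7.03 CPM, and the intervals of both ratios included 1. Under the stricter barcode filter both clusters had 0 UMIs of Jag2 and of Lfng, in only 46 submandibular and 11 parotid cells. The ratio intervals reached 2.06 and 1.43 in submandibular and 13.8 and 6.58 in parotid. All of them included 1, so these counts cannot show a lower level. Dlk2 followed Jag2, with 8 UMIs (3.17 CPM) in the submandibular and 0 UMIs in the parotid cluster, against 38.8 and 30.6 CPM in the other cells. Of the other pathway genes, Dlk1, Dtx3 and Poglut1 were also lower in the submandibular cluster. Heyl (11 UMIs against 3) and Dtx2 (2.85-fold, 1.93 to 4.07) were higher in the parotid cluster. A further 13 parotid cells in a cluster with Krtdap among its leading genes, a keratinocyte gene, had Hes1 at 1523 CPM (1281 to 1798), Nrarp at 337 CPM (229 to 479) and Notch1 at 163 CPM (91.3 to 269).

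**Figure D3:**
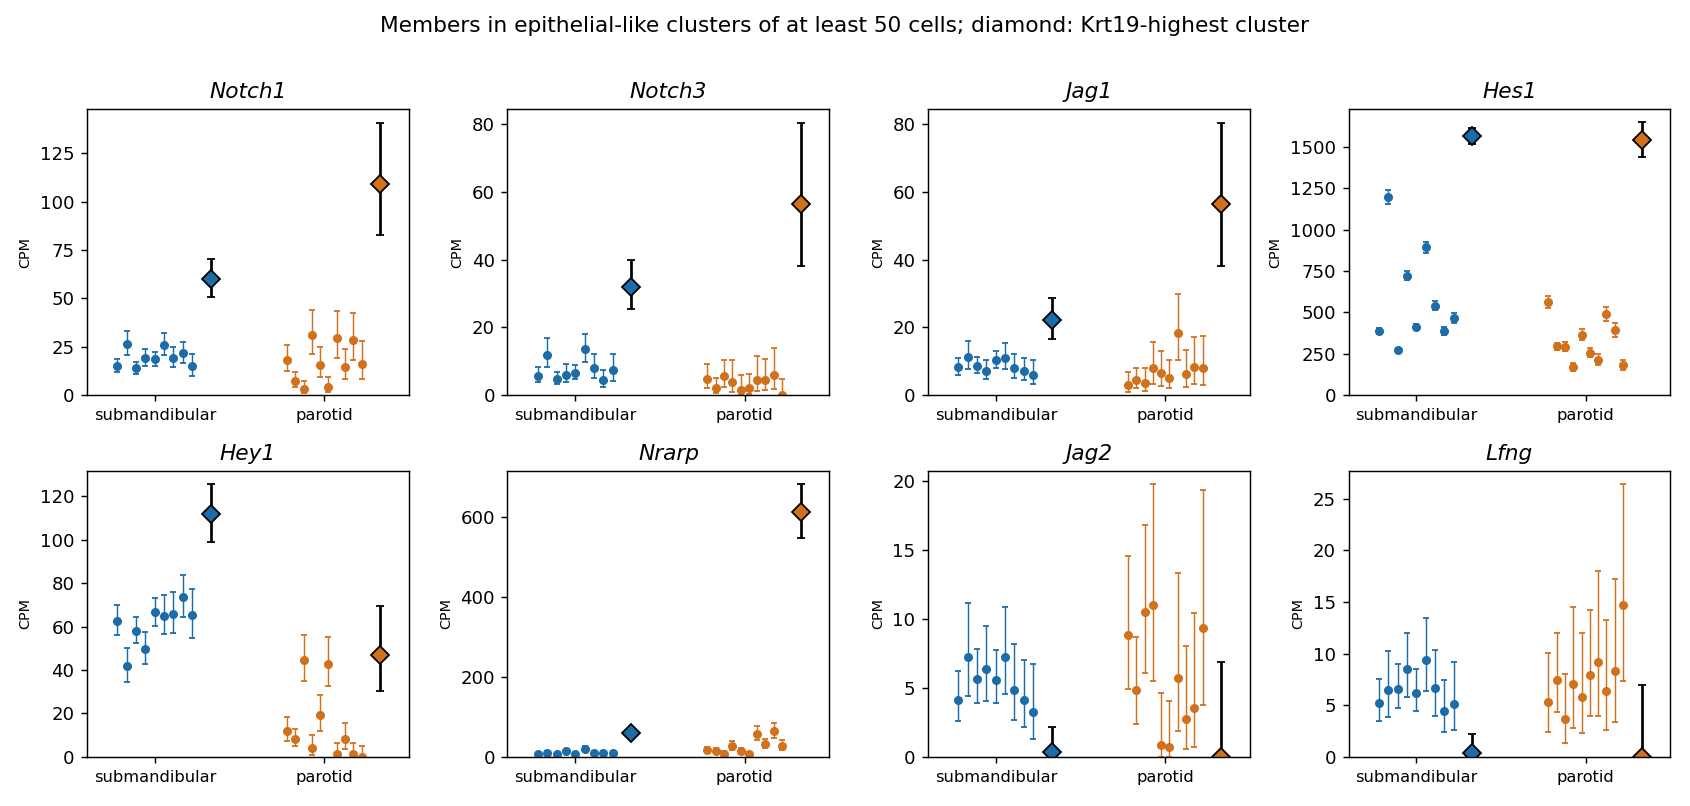
CPM (y axis, linear, from 0) of 8 Notch members in each epithelial-like cluster of at least 50 cells, 10 submandibular (blue) and 11 parotid (orange), with 95% Poisson intervals; the order of clusters along the x axis within a gland has no meaning. The diamond is the cluster with the most Krt19, of 269 submandibular and 82 parotid cells, which is the highest for Notch1, Notch3, Jag1, Hes1, Hey1 and Nrarp and at or near 0 for Jag2 and Lfng.

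Set gland against gland, Hey1 and Nrarp differed in opposite directions in epithelial-like cells. Of the 5 members that reached 20 CPM, Hey1 was higher in submandibular cells, at 64.6 against 17.5 CPM (3.70-fold, 3.23 to 4.25), and Nrarp lower, at 13.7 against 48.9 CPM (0.279 of the parotid level, 0.248 to 0.314), where 2.5% of 5566 genes were higher and 3.32% lower. Hes1 was 1.54-fold higher (1.49 to 1.58), and Notch1 (1.10, 0.954 to 1.27) and Notch2 (1.18, 1.02 to 1.37) differed little. Under 20 CPM, Notch3 was 1.54-fold higher (1.19 to 1.998), and Jag1 (1.12), Jag2 (0.916) and Lfng (0.903) had intervals that included 1. Dll1, with 0 against 14 UMIs, was 13.4-fold lower, taking 3 UMIs for the 0. Of the 43 other pathway genes, 15 reached 20 CPM and 1, Dlk1, was higher in submandibular epithelium.

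The gland difference in Nrarp depended on which cells were taken, as alternatives chosen after the data had been seen. Without the Krt19-highest cluster it was at 10.4 CPM in submandibular and 25.5 CPM in parotid cells (ratio 0.409, 0.351 to 0.476). Among Sox10-positive cells alone, 910 submandibular and 194 parotid, it was at 8.81 and 10.3 CPM (ratio 0.854, 0.523 to 1.47). Hey1 stood at 61.2 and 16.2 CPM without the Krt19-highest clusters (3.77-fold, 3.27 to 4.37) and at 65.6 and 36.4 CPM in Sox10-positive cells (1.80-fold, 1.41 to 2.35). Hey1 in parotid epithelium stood at 44.5 and 42.7 CPM in 2 clusters, 46.9 CPM in the Krt19-highest one and between 0 and 19.1 CPM in the other 8. All 10 submandibular clusters lay between 42.0 and 112 CPM. Notch1 among Sox10-positive cells was at 18.9 CPM in submandibular and 6.52 CPM in parotid, on 246 and 12 UMIs (2.89-fold, 1.63 to 5.68).

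**Figure D4:**
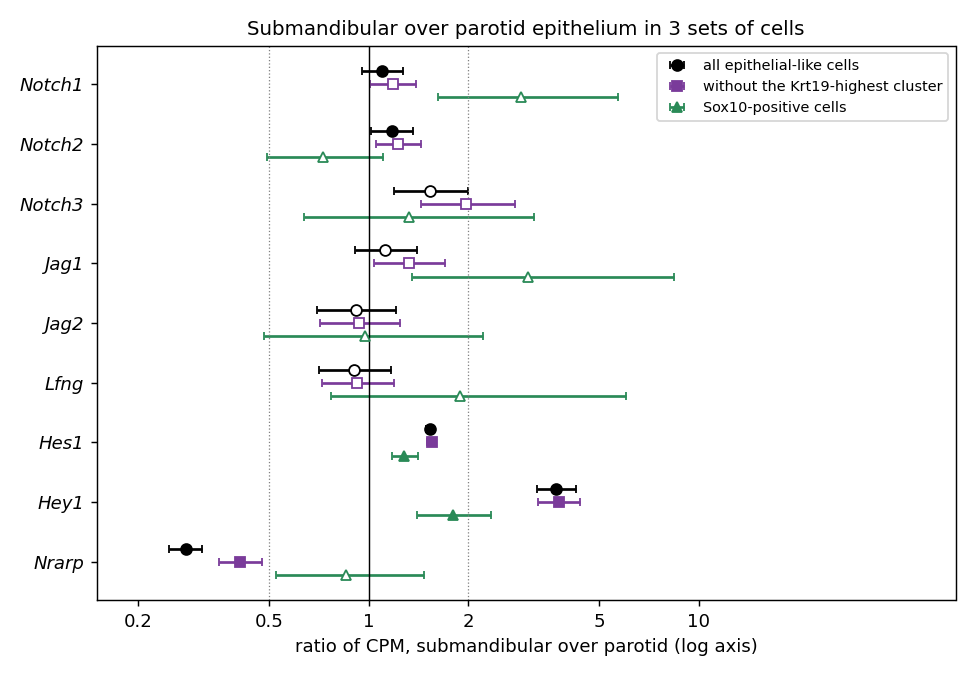
Ratio of CPM, submandibular over parotid (x axis, logarithmic), of 9 Notch members in all epithelial-like cells (black circles), without the Krt19-highest cluster of each gland (purple squares) and in Sox10-positive cells (green triangles), with 95% counting intervals. Filled points reach 20 CPM in 1 gland, dotted lines mark 2-fold, and Dll1, at 0 in submandibular cells, is not drawn. Nrarp moves from 0.279 through 0.409 to 0.854, and Hey1 from 3.70 through 3.77 to 1.80.

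Sox10, a transcription factor gene of the distal bud, was used to set bud cells against the rest within each gland. In parotid epithelium Hey1 was higher in Sox10-positive cells, at 36.4 against 14.4 CPM (2.52-fold, 1.87 to 3.37), while Notch1, at 6.52 against 21.6 CPM, and Nrarp, at 10.3 against 55.1 CPM, were at 0.302 (0.154 to 0.537) and 0.187 (0.112 to 0.295) of the Sox10-negative level. These were 1 higher and 2 lower of 4 members that reached 20 CPM, where 2.33% of genes were higher and 3.13% lower. The parotid Krt19-highest cluster, without a Sox10 UMI, lay wholly among the Sox10-negative cells. It held 58 of the 260 Notch1 and 326 of the 652 Nrarp UMIs of parotid epithelial-like cells. Under the stricter barcode filter parotid Notch1 was at 4.86 against 13.3 CPM, under the minimum and so not counted. In submandibular epithelium Hey1 did not differ 2-fold, at 65.6 against 64.0 CPM (1.03, 0.943 to 1.11), and Notch2 was lower, at 12.3 against 25.9 CPM (0.473, 0.395 to 0.563), the 1 member counted of 4, where 0.355% of genes were higher and 1.61% lower. Hes1 was at 368 against 719 CPM (0.512, 0.496 to 0.528). Without the Krt19-highest cluster no submandibular member was past 2-fold. Sox10-positive cells were deeper, with medians of 13430.5 against 8466.5 UMIs in submandibular and 8741 against 6899 in parotid epithelium, and a cell with fewer UMIs can be missed as Sox10-negative. Dlk2 was lower in Sox10-positive cells of both glands, 3.47-fold (2.96 to 4.08) and 7.69-fold (3.86 to 17.9).

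Hes1, summed over mesenchymal-like cells, was higher in the submandibular than in the parotid library. It was at 80.8 CPM in submandibular and 26.0 CPM in parotid cells, 3.10-fold higher (2.83 to 3.40), the 1 of 2 members that reached 20 CPM to be counted, where 5.16% of 6148 genes were higher and 3.58% lower (317 and 220, or 242 and 253 with DESeq2 size factors). Over all kept barcodes of the mesenchyme libraries, Hes1 no longer differed 2-fold (log2 ratio 0.75). Across 12 submandibular clusters of at least 50 cells Hes1 lay between 18.7 and 202 CPM with a median of 74.1 CPM, and across 15 parotid clusters between 0 and 50.2 CPM with a median of 19.7 CPM, so the ranges overlapped. The submandibular cluster highest in Hes1, 243 cells with Sfrp2 and Ntrk2 among the leading genes, was also the highest in Notch1 (21.5 CPM, 14.8 to 30.3) and Jag1 (15.7 CPM, 10.0 to 23.3). Notch2 was at 47.9 CPM in submandibular and 68.6 CPM in parotid mesenchymal-like cells (0.698, 0.647 to 0.753). Jag1 was lower in submandibular cells, at 2.96 against 6.88 CPM (0.430, 0.321 to 0.571), under the minimum level. Of the pathway genes Dlk1, 27.4-fold (26.1 to 28.7), and Maml2, a coactivator gene, 2.06-fold (1.80 to 2.36), were higher in submandibular cells.

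Skeletal muscle-like cells, 130 in submandibular and 234 in parotid mesenchyme, had a set of members unlike that of the surrounding mesenchymal-like cells, a comparison added after the data had been seen. Hes1, Hey1, Lfng and Notch3 were higher in both glands, 4 of the 5 members that reached 20 CPM, where 6.86% of genes were higher and 20.9% lower in submandibular and 6.22% and 17.8% in parotid mesenchyme (with DESeq2 size factors 741 and 784 in place of 430 and 1309, and 643 and 707 in place of 366 and 1046). Hey1 was at 50.8 and 58.5 CPM, against 2.05 and 0.759 CPM, 24.7-fold (17.3 to 35.8) and 77.0-fold (47.6 to 132) higher. Lfng, on 35 and 77 UMIs against 7 and 11, was 71.1-fold (31.1 to 190) and 45.8-fold (24.2 to 95.5) higher. Hes1 was 3.27-fold (2.95 to 3.63) and 6.95-fold (6.22 to 7.77) higher, and Notch3 2.56-fold (1.88 to 3.44) and 2.03-fold (1.55 to 2.62). Dll1, under 20 CPM, had 22 and 31 UMIs against 1 and 5, 313-fold (50.5 to 12905) and 40.5-fold (15.6 to 134). Notch1 was at 0.854 (0.419 to 1.57) and 0.755 (0.456 to 1.19) of the mesenchymal-like level, turning above it in submandibular mesenchyme with DESeq2 size factors (log2 ratio 0.08), and Jag1, on 3 and 6 UMIs, at 0.592 (0.119 to 1.80) and 0.241 (0.0871 to 0.535). Hes6, which encodes a factor that opposes Hes1, was 10.6-fold (9.59 to 11.8) and 12.2-fold (11.3 to 13.3) higher. Heyl, another Hey family target, was at 34.4 against 0.493 CPM in submandibular mesenchyme.

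Likeness was taken as Pearson's r of log2(CPM + 1) over 57 named clusters of at least 50 cells from the 4 libraries, among 9584 genes, and is a description, since clusters of 1 library share its cells and depth. The genes most like Nrarp were Slc2a1 (r = 0.890), Col18a1 (0.854) and Prkch (0.854). Those most like Hes1 were 1500011K16Rik (0.880), Cd151 (0.855) and Ezr (0.851), and those most like Hey1 were Foxc1 (0.828), Wipf3 (0.823) and Tspan12 (0.818). Notch1 was nearest to D8Ertd82e (0.770), Cdc42se1 (0.763) and Jup (0.754), and Notch2 to Kifap3 (0.842), Pfn2 (0.821) and Hsf2 (0.817). Notch3 was nearest to Tmem41a (0.684), Jag1 to Arpc5 (0.731) and Lfng to Kremen2 (0.817). Jag2 and Dll1 reached 20 CPM in no cluster, so none is named for them.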

How the data were processed

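The 4 libraries were made on the 10x Chromium system, pooled and sequenced together, per the labels' protocols. The authors deposited whole-number UMI counts per gene and barcode, not normalized. Cell Ranger 2.1.1 and mm10 are named in the submitters' processing notes, and the barcode filter is not given in the sources used here. Depth was 39621166 and 14004908 UMIs in submandibular and parotid epithelium and 32036980 and 30815632 in submandibular and parotid mesenchyme.

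Barcodes were kept from 500 detected genes upward if no more than 10% of their UMIs were mitochondrial. Each library was clustered on its own (scanpy 1.11.5, igraph 0.11.9; 2000 variable genes without the Notch members and 43 other pathway genes, 30 components, 15 neighbours, Leiden resolution 0.8). A cluster was named from marker lists, needing at least 3 markers in at least 25% of its cells, and clusters under 1% median mitochondrial UMIs outside the erythroid class stayed unnamed, a limit chosen once the data were known. Doublets were not removed and no caller was run; leaving out the 5% of barcodes with the most UMIs was an alternative. Library pairs shared 9 to 32 barcode sequences among kept cells, and these were left in.

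UMIs were summed per group of cells and given as CPM. Poisson intervals of CPM, exact conditional binomial intervals of ratios and Clopper-Pearson intervals of shares are at 95% and cover counting error only. A gene counted as higher or lower at a ratio of at least 2 with at least 20 CPM in the higher group, and a group at 0 was taken at 3 UMIs. In every comparison a gene that reached 20 CPM in only 1 of the groups could thus be counted in 1 direction only. With 1 library per group no p-value was computed. Scaling alternatives used TMM from edgeR 4.0.16 and size factors from DESeq2 1.42.0, under R 4.3.3. The ratios and intervals were also computed on simulated Poisson counts, the same model that the intervals assume. That run checks the calculation only, and not the clustering, the endothelial gate or variation between animals. The named genes are all 10 members, at most 5 of the 43 pathway genes per comparison with the largest absolute log2 ratio past the rule, and the 3 genes most like each member. Some genes that the rule takes are left out of the text. Notch4 and Hes5 are also shown for the gland where the rule did not take them. The members, lists and comparisons were chosen with earlier results of these data known; 9 comparisons were planned and 5, of the Krt19-highest clusters and muscle-like cells, were chosen after the data had been seen.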

Additional observations from a re-analysis of the deposited data

How the results depend on the processing

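No paired analysis was possible because each group had 1 library. Of 1308 ratios of members recomputed under the alternatives, 1187 stayed within the counting interval and 121 moved outside it. Direction turned in 57, 0 of them past the size rule, with 17 of the 57 under the stricter barcode filter, 11 without the 5% of barcodes with the most UMIs, 3 with TMM scaling and 4 with DESeq2 size factors (Hey1 and Jag2 between the glands' endothelial cells, Notch1 and Notch2 in submandibular muscle-like cells). Some turns rest only on the 3 UMIs taken for a group at 0. Under the stricter filter Jag2 in the submandibular Krt19-highest cluster, with 0 against 111 UMIs, thus took a ratio of 1.65. Of 134 recomputed counts of members past the rule, 104 stayed within 1.5 times and 30 did not, and the cause was not tested except that a higher or lower minimum admits fewer or more genes by construction. With a minimum of 50 CPM in place of 20, the counts were 1 for the gland comparison of epithelium, 2 for submandibular epithelium over mesenchyme, 0 and 1 for Sox10-positive over Sox10-negative cells in submandibular and parotid epithelium, 3 for the submandibular Krt19-highest cluster, and 2 and 2 for muscle-like cells. With no minimum they were 6 for the gland comparison of mesenchyme, 8 and 8 for epithelium over mesenchyme, 9 and 9 for endothelial over mesenchymal-like cells, 1 between the glands' endothelial cells, 5 for parotid Sox10-positive cells, 5 between the Krt19-highest clusters, and 7 and 8 for muscle-like cells. The 6 include Jag2, taken as lower in submandibular cells though only these held a UMI, since the parotid 0 was taken at 3 UMIs. Under the stricter barcode filter, a minimum of 1000 genes and no more than 5% of UMIs from mitochondria, the counts were 2 between the glands' endothelial cells, of which 19 and 22 were left, 0 for submandibular Sox10-positive cells and 5 between the Krt19-highest clusters. With the mean over cells, and likewise without the 5% of barcodes with the most UMIs, the counts were 1, 2 and 2 for the glands' endothelial cells, submandibular Sox10-positive cells and parotid muscle-like cells. Over all kept barcodes the gland comparison of mesenchyme had 0. Sox10-positive at 2 UMIs gave 2 in submandibular epithelium, where leaving out the Krt19-highest cluster gave 0, and Sox10-positive cells alone gave 0 between the glands' epithelia. TMM scaling shifted the median log2 ratio of all genes by 0.23 for submandibular epithelium over mesenchyme, 0.14 for submandibular endothelial cells, -0.14 and -0.17 for the Krt19-highest clusters, 0.12 between them, 0.21 and 0.20 for muscle-like cells and -0.10 for the gland comparison of mesenchyme. DESeq2 size factors shifted it by 0.20 for submandibular epithelium over mesenchyme, 0.28 and 0.22 for submandibular and parotid endothelial cells, 0.31 and 0.27 for muscle-like cells and -0.11 for the gland comparison of mesenchyme. Depth limits the endothelial values of Notch2, Notch3, Jag1, Jag2, Dll1 and Lfng, which gave at most 16 UMIs in either gland.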
